A study of Mus musculus with 8 samples.

Results

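The complement genes C4bp, C3, C1qa, C1qb, C1qc, C2, C4b and Cfb were followed in epididymal fat, a visceral fat depot of male mice. The 8 genes were selected on earlier results of these same arrays, where C4bp stood among the genes lowest in the DU6i line relative to the DBA line, so their levels are given as a description. All probe sets with exactly 1 of these symbols in the platform annotation were taken, which gave 9 probe sets of 6 genes, out of 13069 probe sets and 6137 named genes. C3 and C4b had no probe set of their own here; a single probe set carries the symbols C4a and C4b together and is described apart. All 9 probe sets were above the floor on the arrays of all 4 lines, the floor being the level below which a signal was not distinguished from the negative signals of its chip.

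The arrays compared 4 mouse lines, and each group was male mice aged 42 days with no treatment named in the labels. As general knowledge, DU6 is an outbred line bred for rapid growth, DU6i was inbred from it, DUKs is the unselected control and DBA is an inbred strain. The labels give these names and the keyword of selected mouse lines, but not the selection itself or which DBA substrain was used. RNA from 20 males of a line was pooled, and the pool was hybridised once to each chip of an Affymetrix pair, A and B, giving 8 arrays. With 1 pool per line there was no replicate, which limits the precision of all values here. Signals are linear intensities in array units, and each gene is compared between lines within 1 probe set. The sums over marker lists below add probe sets of both chips, weigh bright probe sets most and are given only as a summary level.

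Complement is a set of blood and tissue proteins that mark microbes and dying cells. The classical pathway starts when C1q, built of the chains encoded by C1qa, C1qb and C1qc, binds a target and C4 and C2 are cleaved in turn; the alternative pathway runs on C3 and factor B, encoded by Cfb. C4bp encodes the C4b-binding protein, which takes the C4-containing convertase apart and helps factor I to cleave C4b. Most of these proteins come from the liver, whereas C1q is made largely by macrophages and dendritic cells, and fat itself is known as a source of alternative pathway components. In the mouse genome table used for names, C1qb, C1qc and C1qa follow one another on chromosome 4, and Cfb lies next to C2 on chromosome 17, the chromosome that also carries C4b and C3. C4bp lies on chromosome 1 next to Zp3r, which encodes a related protein of the sperm acrosome.

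The fat identity of the pools and their other tissues were checked by marker lists. All 14 adipocyte markers with a probe set were above the floor in at least 1 line, and Adipoq, which encodes adiponectin, had signals of 21044 in DU6, 48251 in DU6i, 36670.3 in DUKs and 28894 in DBA. Transcripts of the male tract and of germ cells were present too, with 2 to 8 of 10 epididymis and male tract markers and 7 to 13 of 13 measured germ cell markers above the floor in a line. The middle probe set of the control transcript pyruvate carboxylase was weak relative to its 3' probe set in some lines. On chip A this share was 15.3% for DU6, 54.5% for DU6i, 53.9% for DUKs and 19.5% for DBA, and on chip B DU6 and DBA were low as well, at 12.7% and 14.3%. The 99th percentile of the signals on chip A was 18809.5 in DU6, 34793 in DU6i, 27552 in DUKs and 23450.1 in DBA, and on chip B 49489, 34692, 52203 and 33621.5 in the same order.

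A single log2 ratio between 2 lines had a technical SD of 0.44 for DU6 over DUKs and 0.35 for DU6i over DBA, derived from 387 and 383 genes with 2 probe sets above the floor. For DU6 over DU6i it was 0.48, for DUKs over DBA 0.40, for DU6 over DBA 0.37 and for DU6i over DUKs 0.40. A difference is called larger than the technical error below when it exceeds 2 of these SDs, which corresponds to folds between 1.62 and 1.95. This error covers differences between probe sets of a gene, not animals or pools, so no p-value can be given for a pair of lines. An error shared by a whole array cancels where both probe sets are on the same chip, and is then not covered.

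C4bp was the member that differed most between the lines. Its probe set, M17122_s_at on chip A, had a signal of 16244 in DU6, 1524 in DU6i, 7222 in DUKs and 17241 in DBA. DBA and DU6 were thus high and alike, DUKs stood between, and DU6i was low, at 1.49 times the floor. DU6 was 2.25-fold higher than DUKs, a log2 ratio of 1.17. DU6i was 11.3-fold lower than DBA, a log2 ratio of -3.50, so that DU6 and DU6i lay on opposite sides of the lines they were set against. DU6 exceeded its inbred derivative DU6i 10.7-fold, and DUKs was 2.39-fold lower than DBA. The size of the ratios with DU6i depended on how low signals and scaling were treated, between 7.17-fold and 11.3-fold for DU6i below DBA and between 6.78-fold and 12.1-fold for DU6 above DU6i. All 4 differences were larger than the technical error, as was the 4.74-fold lower signal of DU6i relative to DUKs. DU6 and DBA differed by a log2 ratio of only -0.09, within the technical error. The lines high in C4bp, DU6 and DBA, were also those with a low middle share of pyruvate carboxylase, and the part of RNA quality in the C4bp signal was not tested.

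**Figure D1:**
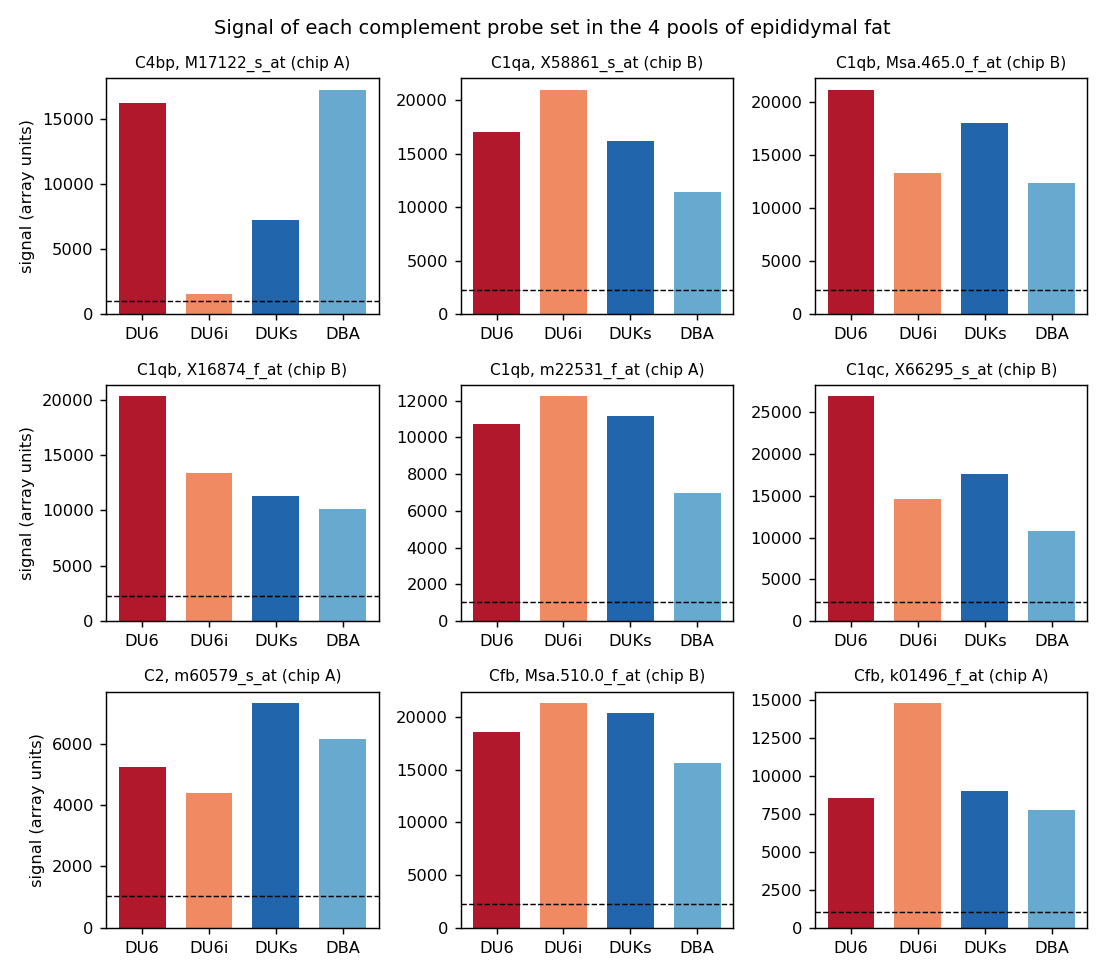
Signal in array units (y axes, from 0, each panel on its own scale) of the 9 complement probe sets in the pools of DU6, DU6i, DUKs and DBA (x axes). Each bar is 1 array and the dashed line is the floor of the chip (1022.8 on chip A, 2258.25 on chip B); C4bp spans an 11.3-fold range with DU6i lowest, whereas the other 8 probe sets span between 1.36-fold and 2.50-fold.

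The start region of C4bp is shown because this gene carries the widest difference. It is the RefSeq window from 250 bases before to 50 bases after an annotated transcription start, on the minus strand at chr1:130661569-130661868 of GRCm38.p6, and the capitals mark the letters GTTAAT, found in sites of HNF1, a transcription factor of hepatocytes.
C4bp: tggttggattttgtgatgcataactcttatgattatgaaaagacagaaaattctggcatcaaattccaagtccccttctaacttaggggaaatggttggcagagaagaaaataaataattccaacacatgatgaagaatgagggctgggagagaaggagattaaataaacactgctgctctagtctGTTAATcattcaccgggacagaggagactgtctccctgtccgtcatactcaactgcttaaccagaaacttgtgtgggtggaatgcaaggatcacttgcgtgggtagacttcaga
These letters begin 64 bases before the start. They were found by a search of both strands, and 7.10% of 32851 mouse promoter windows of the same length hold them. The motif was picked after the sequence had been seen, and a match of letters is not a binding site. The same window holds no match to the TATA box letters TATAAA on the transcribed strand, which 8.32% of windows hold, or to the C/EBP letters TTGCNNAA on either strand, which 10.8% hold.

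Because fat pools may carry RNA of neighbouring tissue, the levels of other tissues' markers were set beside C4bp. Lcn2, a lipocalin of neutrophils and epithelia including the epididymis, is not specific to the male tract. It had signals of 48487 in DU6, 6788 in DU6i, 29578 in DUKs and 36012 in DBA by its brightest probe set. Which cells of the pools made it was not tested. Gpx5, the glutathione peroxidase of the epididymis, was below 0 in DU6i, against signals of 49126 for DU6, 52044 for DUKs and 20753 for DBA. Over all 10 measured epididymis and male tract markers the summed signal, with values under the floor counted at it, was 130524 in DU6, 28298 in DU6i, 141241 in DUKs and 192673 in DBA. These sums rest on few genes, and Lcn2 alone gave 48487 of the sum in DU6. In DU6 the 3 markers above the floor were Gpx5, Lcn2 and Adam7, of which Lcn2 and Adam7 were also above it in DU6i, and all 3 were lowest in DU6i. The other 7 were under the floor in both DU6 and DU6i, and most of the sum in DBA came from Svs2, Svs4 and Svs5, genes of the seminal vesicle that were below the floor in the other lines. Epithelial and mesothelial markers were also lowest in DU6i, in 7 of 9 genes. Of all 3974 probe sets above the floor on 4 arrays, DU6i was lowest in 28.2%. The summed signal of the 9 epithelial and mesothelial markers was 42124 in DU6, 27341 in DU6i, 34035 in DUKs and 65384 in DBA. Liver markers did not follow this order: the sum over 8 genes was 81951 in DU6, 183282 in DU6i, 113700 in DUKs and 168651 in DBA, with Ttr and Apoa1 under the floor in all 4 lines. Cyp2e1 alone gave 52184 of the sum in DU6i. Gene by gene, DBA was highest in 4 of the 8 and DU6i in 3, and DU6 was lowest in 7. These 7 include Ambp, for which DU6 and DUKs were both under the floor. The part of these tissues in the C4bp signal was not tested. In pooled tissue, fewer cells of a type and less RNA per cell cannot be told apart.

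The genes of chip A nearest to C4bp in their profile over the 4 lines were Cad, Sardh, Actb, Ido1 and Pemt, out of 3054 candidate probe sets, by the distance between log2 signals centred on their mean. Cad, the enzyme that starts pyrimidine synthesis, lay at a distance of 0.41 and had signals of 10910 in DU6, 1517 in DU6i, 6304 in DUKs and 13743 in DBA. Sardh, the sarcosine dehydrogenase of mitochondria, lay at 0.46, with 7336 in DU6, 3633 in DUKs, 7968 in DBA and a value under the floor in DU6i. Pemt, which makes phosphatidylcholine from phosphatidylethanolamine, and Ido1, which degrades tryptophan, were under the floor in DU6i as well; Ido1 lay at a distance of 0.98 and Pemt just beyond it. The probe set named Actb, for cytoplasmic beta-actin, lay at 0.74 and was under the floor in DU6i. The nearness rests on 4 values per gene.

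**Figure D2:**
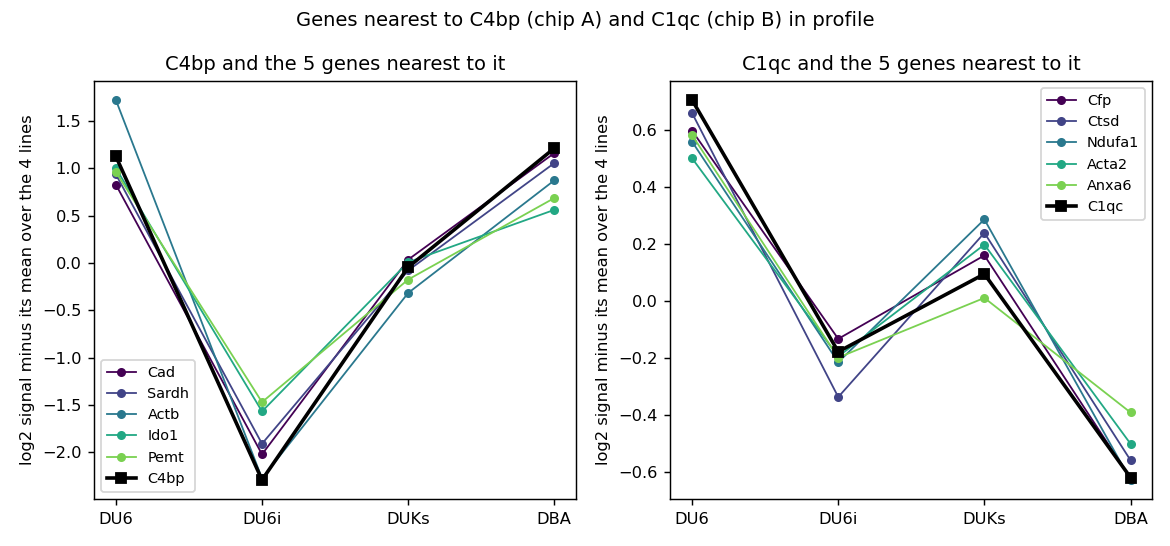
Log2 signal minus its mean over the 4 lines (y axes) in DU6, DU6i, DUKs and DBA (x axes) for C4bp on chip A (left) and C1qc on chip B (right), in black squares, with the 5 genes nearest to each as coloured circles; lines join the values of 1 probe set. All 6 profiles on the left are lowest in DU6i, and the 6 profiles on the right are highest in DU6 and lowest in DBA.

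The C1q chains were lowest in DBA by every probe set. C1qa, on chip B, had signals of 17011 in DU6, 21009 in DU6i, 16217 in DUKs and 11456 in DBA. DU6i was 1.83-fold higher than DBA for this chain, larger than the technical error, while DU6 and DUKs differed by a log2 ratio of 0.07. C1qc, also on chip B, had 26900.5 in DU6, 14594.5 in DU6i, 17628 in DUKs and 10751 in DBA. DU6 was therefore 2.50-fold higher than DBA, the only 2-fold difference of a C1q chain by its brightest probe set among the 6 pairs of lines. DU6 was 1.53-fold higher than DUKs for C1qc and DU6i 1.36-fold higher than DBA, both within the technical error.

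C1qb was measured by 3 probe sets, which differed among themselves. The brightest, on chip B, had 21169 in DU6, 13335 in DU6i, 18073 in DUKs and 12352 in DBA, the same order of lines as C1qc. X16874_f_at, also on chip B, had 20307 in DU6, 13352.5 in DU6i, 11295 in DUKs and 10156.5 in DBA. The probe set on chip A, m22531_f_at, had 10704 in DU6, 12222 in DU6i, 11148 in DUKs and 6965.5 in DBA. All 3 had DBA lowest, but DU6 was highest on chip B and DU6i on chip A. After quantile normalisation the chip A probe set was highest in DUKs, with 11480 against 11417 in DU6i, and DBA stayed lowest. Its mean signal was over 10000, and DU6i was highest in 56.5% of 499 such probe sets of chip A. The part of array range in this order was not tested. For DU6 over DUKs the log2 ratios of the 3 probe sets ran between -0.06 and 0.85, and for DU6i over DBA between 0.11 and 0.81. The suffix _f marks probe sets that Affymetrix flagged for similarity to other sequences, and it is carried by all 3 probe sets of C1qb and both of Cfb.

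**Figure D3:**
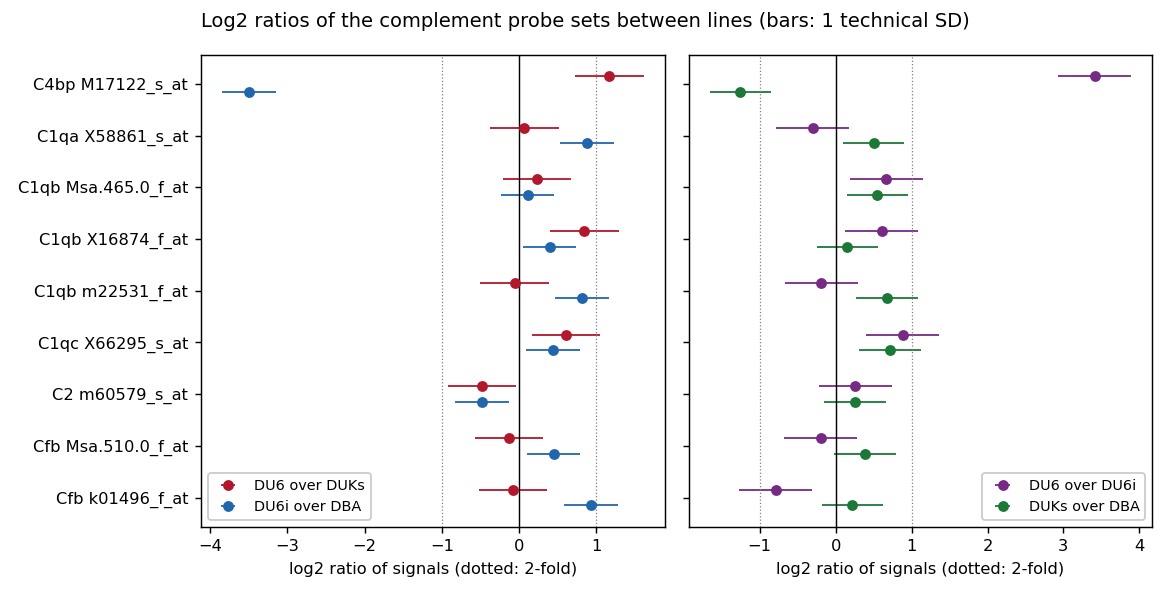
Log2 ratio of signals (x axes, dotted lines at 2-fold) of the 9 complement probe sets (y axis), for DU6 over DUKs and DU6i over DBA on the left and DU6 over DU6i and DUKs over DBA on the right; each bar is 1 technical SD of the pair. C4bp is the only probe set past 2-fold in these 4 pairs, and its points for DU6 over DUKs (1.17) and DU6i over DBA (-3.50) lie on opposite sides of 0.

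The start regions of C1qb and C1qc are shown because these neighbouring genes, read by the brightest C1qb probe set and the C1qc probe set, had the same order of lines. Both windows are from RefSeq on GRCm38.p6, minus strand, from 250 bases before to 50 after an annotated start, at chr4:136886151-136886450 for C1qb and chr4:136892865-136893164 for C1qc. Capitals mark the letters GAGGAA, a core bound by ETS factors such as PU.1 of macrophages, read as TTCCTC on the other strand, and TGCTGA, a core bound by Maf factors.
C1qb: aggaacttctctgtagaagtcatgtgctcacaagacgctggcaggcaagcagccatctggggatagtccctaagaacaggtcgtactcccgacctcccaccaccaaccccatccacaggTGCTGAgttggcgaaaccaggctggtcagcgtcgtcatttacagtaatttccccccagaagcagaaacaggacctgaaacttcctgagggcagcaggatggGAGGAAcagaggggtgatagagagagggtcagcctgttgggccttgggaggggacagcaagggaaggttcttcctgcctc
C1qc: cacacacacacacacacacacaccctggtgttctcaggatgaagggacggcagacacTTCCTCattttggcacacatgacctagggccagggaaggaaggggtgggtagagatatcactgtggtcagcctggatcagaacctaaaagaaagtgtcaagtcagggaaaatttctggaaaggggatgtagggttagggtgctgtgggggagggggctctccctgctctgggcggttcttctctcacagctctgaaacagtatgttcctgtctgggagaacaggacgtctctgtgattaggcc
In C1qb the letters GAGGAA begin 30 bases before the start and TGCTGA 131 bases before it. In C1qc the match to GAGGAA lies on the opposite strand and begins 193 bases before the start. The marks show these letters only, and not every form of such sites. Both strands were searched: 28.3% of all 32851 windows hold GAGGAA and 19.5% hold TGCTGA, so that either is common. Neither window matched TATAAA on the transcribed strand or TTGCNNAA on either. No window was printed for C1qa.

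Macrophage and myeloid markers were set beside C1q. The summed signal of 17 such markers was 165715 in DU6, 161536 in DU6i, 130570 in DUKs and 102896 in DBA, and DBA was the lowest line in 11 of the 17 genes as it was in 5 of 5 C1q probe sets. Among all 1318 probe sets of chip B above the floor on 4 arrays, DBA was lowest in 23.1%, and on chip A in 23.5% of 2656. For DU6 over DUKs the median log2 ratio was 0.23 over the C1q probe sets and 0.51 over the 17 markers, against 0.05 over all 5604 probe sets of that pair. For DU6i over DBA it was 0.44 and 0.70, against -0.03 over 5556 probe sets. For DU6 over DU6i the medians were 0.60 for C1q and 0.44 for the markers, for DUKs over DBA 0.55 and 0.37, and for DU6 over DBA 0.78 and 0.72. In DU6i over DUKs they were 0.13 and 0.33, and there only 3 of the 5 C1q probe sets were higher while 12 of 16 markers were. In DU6 over DUKs none of the 5 C1q probe sets exceeded the technical error. Fcgr1 and Cybb, also of the macrophage list, were under the floor in all 4 lines. Csf1r, the receptor that macrophages need to survive, had 13955 in DU6, 10082 in DU6i, 6720 in DUKs and 6452 in DBA. It was 1 of 5 markers at 2-fold or more higher in DU6 than in DUKs. Of the 17 markers 15 were higher in DU6 than in DUKs and 2 were lower, Lyz2 and Ptprc. Lyz2 had 19244 in DU6 and 34013 in DUKs, and Ptprc had 6133 and 8285. Lyz2 is on chip A, and its order of lines, DU6i, DUKs, DBA, DU6, was that of the 99th percentiles of that chip. It alone gave 41964 of the summed signal in DU6i and 19244 of that in DU6. The part of array range in the Lyz2 signal was not tested. The part of macrophage number in the C1q signals was not tested.

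**Figure D4:**
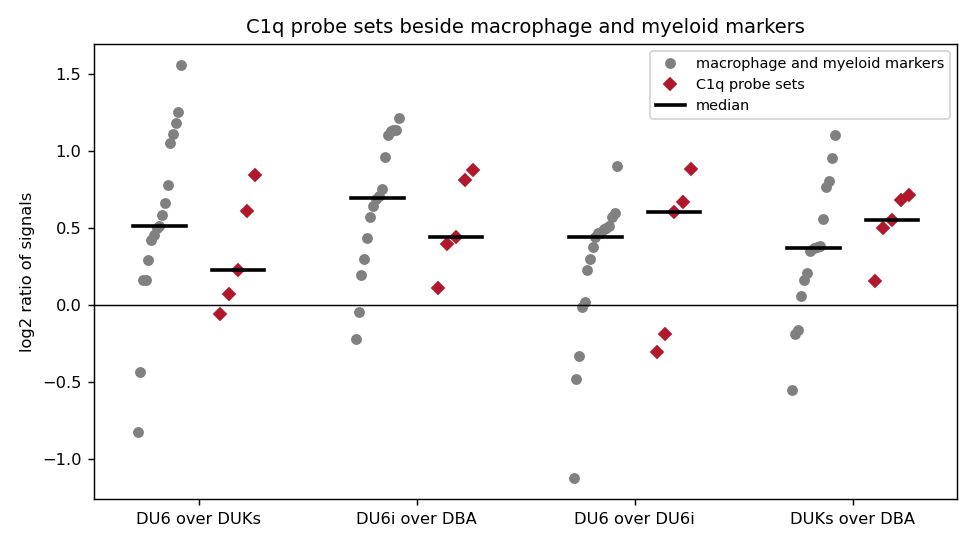
Log2 ratio of signals (y axis) for the macrophage and myeloid markers measured in each pair (grey circles, 1 per gene) and the 5 C1q probe sets (red diamonds) in 4 pairs of lines (x axis); black bars are medians. In DU6 over DUKs the medians are 0.23 for C1q and 0.51 for the markers, and in DUKs over DBA 0.55 and 0.37.

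The genes of chip B nearest to C1qc in profile, of 807 candidate probe sets, were Cfp, Ctsd, Ndufa1, Acta2 and Anxa6. Cfp encodes properdin, the protein that stabilises the convertase of the alternative pathway, and lay at a distance of 0.13. Its probe set had 9082 in DU6, 5478 in DU6i, 6709 in DUKs and 3905 in DBA, so that DU6 was 1.35-fold higher than DUKs and 2.33-fold higher than DBA. Ctsd, the lysosomal protease cathepsin D, had 56229 in DU6, 28208 in DU6i, 42036 in DUKs and 24194 in DBA, at a distance of 0.23. Ndufa1, of respiratory complex I, and Acta2, the actin of smooth muscle, followed at 0.24 and 0.26, and Anxa6, a calcium-dependent membrane-binding annexin, at 0.27. The 99th percentile of chip B was likewise higher in DU6 and DUKs than in DU6i and DBA, and of its 620 probe sets with a mean signal over 10000 DU6 was highest in 32.3% and DBA lowest in 31.0%; the part of array range in these profiles was not tested. After quantile normalisation, which gives the arrays of a chip the same range, C1qc still had the order DU6, DUKs, DU6i, DBA, and DU6 was 2.40-fold higher than DBA.

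C2, the protease that C1 cleaves to form the classical convertase, was lower in both DU6 lines than in either control. It had 5233 in DU6, 4383 in DU6i, 7309.7 in DUKs and 6132 in DBA. The sides did not overlap, but the log2 ratio of -0.48 for DU6 over DUKs and the equal -0.48 for DU6i over DBA were each within the technical error. The interferon-induced marker list was set beside C2 and beside Cfb, its neighbour in the genome. Of the interferon-induced list 13 of 14 measured genes were lower in DU6 than in DUKs, and 10 of 13 were lower in DU6i than in DBA. The median log2 ratios of the list were -0.38 and -0.65 in these pairs, against 0.05 and -0.03 over all probe sets. Only 2 of the 14 and 5 of the 13 were 2-fold lower, and 1 of the 13 was 2-fold higher. Of all probe sets, 10.2% and 11.5% differed 2-fold or more in either direction. The 2 Cfb probe sets had log2 ratios of -0.14 and -0.08 for DU6 over DUKs. For DU6i over DBA they had 0.45 and 0.93, opposite in direction to C2 and to the median of the list. The part of interferon signalling in the C2 and Cfb signals was not tested.

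Cfb, the factor whose cleaved form is the protease of the alternative convertase, lies next to C2 in the genome but did not follow it. By its chip B probe set it had 18598 in DU6, 21305 in DU6i, 20425 in DUKs and 15644 in DBA. By k01496_f_at on chip A it had 8588 in DU6, 14811 in DU6i, 9054 in DUKs and 7774 in DBA. Both probe sets ranked the lines DU6i, DUKs, DU6, DBA. DU6i was 1.36-fold higher than DBA by the first and 1.91-fold higher by the second, and only the second was larger than the technical error. DU6 and DUKs differed by log2 ratios of -0.14 and -0.08, both within it.

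The probe set annotated to both C4a and C4b, near-identical genes of which C4b encodes the C4 of the classical and lectin pathways, cannot be assigned to either. It had signals of 24389.6 in DU6, 42904 in DU6i, 41149.6 in DUKs and 29119 in DBA, a log2 ratio of -0.75 for DU6 over DUKs and 0.56 for DU6i over DBA. It was among the brightest probe sets of chip A, between 123% and 149% of the 99th percentile of its array. After quantile normalisation these log2 ratios were -0.16 and -0.12, so that the direction of DU6i over DBA turned.

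Counted by size, 1 of the 6 genes differed 2-fold or more in each of the 6 pairs of lines, reading each gene by its brightest probe set. In DU6 vs DUKs, DU6i vs DBA, DU6 vs DU6i, DUKs vs DBA and DU6i vs DUKs that gene was C4bp, and in DU6 vs DBA it was C1qc. One gene of 6 is 16.7%, and of all probe sets the share at 2-fold or more in either direction was 10.2% for DU6 vs DUKs, and for DU6i vs DBA it was 11.5%. It was 10.5% in DU6 vs DU6i, 11.3% in DUKs vs DBA, 7.96% in DU6 vs DBA and 10.1% in DU6i vs DUKs. These pairs share arrays, so the counts are not separate observations. Since C4bp was chosen for its difference, nothing is read from its count.

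The wider complement system was read from 48 further genes, of which 20 had a probe set and 14 were above the floor in at least 1 line. In DU6 vs DUKs 8 of the 12 measured were higher and 4 lower, with 0 at 2-fold higher and 1 at 2-fold lower, and a median log2 ratio of 0.36. In DU6i vs DBA 8 of 14 were higher and 6 lower, with 1 at 2-fold higher, 0 at 2-fold lower and a median of 0.10. Hc, C8g, Masp1, Mbl2, Cfhr2 and Cr2 were under the floor in all 4 lines, the first 2 being components of the membrane attack complex and Masp1 and Mbl2 of the lectin pathway. C9, the pore-forming component, exceeded the floor only in DBA, with 2338.

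Of the fluid-phase regulators, Clu, which encodes clusterin and is also abundant in the epididymis, had signals of 11218 in DU6, 16998 in DU6i, 30355 in DUKs and 19134 in DBA. DU6 was 2.71-fold lower than DUKs, the size that exceeded 2-fold in that pair. Clu is on chip A, where DU6 was the lowest line in 47.1% of 499 probe sets with a mean signal over 10000. The part of array range in the Clu difference was not tested. Vtn, which encodes vitronectin and is made in the liver, had 3461 in DU6i, 1727 in DUKs and 6108 in DBA and was under the floor in DU6. Cfi, the protease for which C4bp is a cofactor, exceeded the floor only in DBA, with 2022. Serping1, the inhibitor of C1, varied least of the 14 genes apart from C9, which was near the floor, with 26607 in DU6, 27033 in DU6i, 28226 in DUKs and 27465 in DBA.

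The measured membrane regulators and receptors differed by less than 2-fold in DU6 over DUKs and in DU6i over DBA, apart from Itgb2 and C3ar1, whose ratios are bounds. Cd59a, which blocks the membrane attack complex, had 9645 in DU6, 9518 in DU6i, 6761 in DUKs and 4929 in DBA, and DU6i was 1.93-fold higher than DBA. Cd55, which speeds the decay of convertases, had 1437 in DU6, 1916 in DU6i, 1289 in DUKs and 1211 in DBA. Cr1l, the rodent membrane regulator Crry, had 14631 in DU6, 11193 in DU6i, 9683.5 in DUKs and 14332 in DBA, without a common direction. Itgb2, the beta chain of complement receptors 3 and 4, had 4288 in DU6 and 4811 in DU6i and was under the floor in DUKs and DBA, so that DU6 was at least 1.90-fold higher than DUKs and DU6i at least 2.13-fold higher than DBA. C3ar1, the receptor for C3a, had 1253 in DU6 and 1741 in DU6i and was likewise under the floor in both controls. Cd93, a membrane protein first described as a C1q receptor, had 13002.5 in DU6, 10842 in DU6i, 9245 in DUKs and 7835 in DBA, with both log2 ratios within the technical error. C1qbp, a mitochondrial protein that binds C1q, had 5442.5 in DU6, 5417 in DU6i, 3296 in DUKs and 5376 in DBA, likewise within it in both pairs. Itgb2 is made by leukocytes in general, whose markers are given with C1q.

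**Figure D5:**
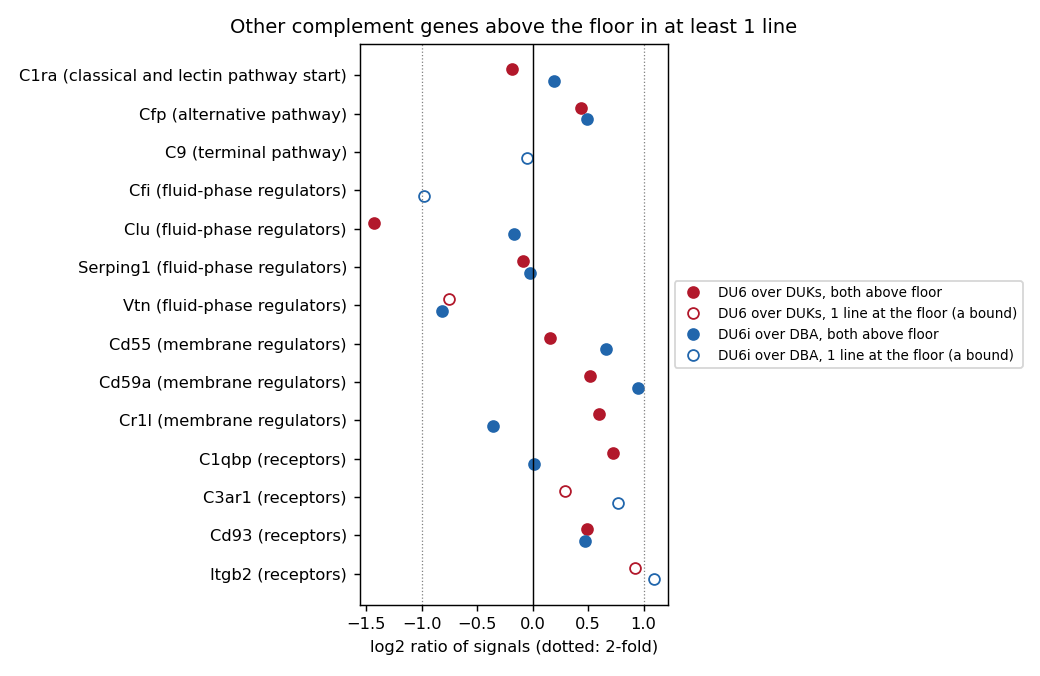
Log2 ratio of signals (x axis, dotted lines at 2-fold) of the 14 complement genes outside the main list that were above the floor in at least 1 line (y axis, with their role), for DU6 over DUKs (red) and DU6i over DBA (blue). Open circles are bounds, with 1 of the lines at the floor; Clu lies at -1.44 for DU6 over DUKs and Itgb2 at 1.09 or more for DU6i over DBA.

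The series title names DU6 and DU6i together and DUKs and DBA together, and these sides were compared with limma across the 5267 probe sets that exceeded the floor on 2 or more arrays. By limma 0 probe sets passed an adjusted p of 0.05, which is 0% of those tested, and 252 had an unadjusted p under it. Of the 9 member probe sets 0 passed and 0 had an unadjusted p under 0.05, and their smallest adjusted p by limma was 0.9998. C4bp had a log2 difference of -1.17 with a standard error of 1.07 (limma adjusted p = 0.9998). The members were chosen with these values known, and the derivation of DU6i from DU6 ties those pools to each other. Of the other complement genes in the fit, Cd59a had a log2 difference of 0.73 with an unadjusted p of 0.0465 (limma adjusted p = 0.9998). Itgb2 entered the fit only through DU6 and DU6i, with DUKs and DBA both set to the floor, so its unadjusted p under 0.05 is no test and its difference is a bound. With 2 lines on a side, the smallest p an exact permutation test allows is 0.333. The signals of the sides did not overlap for 3 of the 9 member probe sets, higher in DU6 and DU6i for C1qa and X16874_f_at of C1qb and lower for C2, where 30.1% of all 5267 probe sets did not overlap.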

How the data were processed

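Epididymal fat RNA was measured on Affymetrix chips A and B, with 1 pool of 20 males per line and chip. Per the labels, the authors used Affymetrix's Data Mining Tool (1.2) and Microarray Suite (4.0.1) and brought arrays to a common level by a scaling over every probe set. What they deposited is a linear intensity for each probe set, below 0 for 12.8% to 30.5% of an array's values. Scaling sets the mean of an array, not the range of its signals.

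Symbols came from the platform annotation, updated by gene ID through a RefSeq table (GRCm38.p6). Control probe sets were left out. Signals at or under a floor, the 95th percentile of the sizes of a chip's negative signals (1022.8 on chip A, 2258.25 on chip B), were set to it before log2. A probe set entered a pair with at least 1 array above the floor, and a ratio with 1 line at the floor is a bound. A gene was counted by its probe set of highest mean signal. The size threshold was 2-fold. Sides were compared with limma 3.58.1 (lmFit, eBayes; R 4.3.3), each chip fitted separately, with Benjamini-Hochberg adjustment over both; the code was tested on simulated data. The members and lists were chosen with earlier results of these data known. Named genes are all members, the listed complement genes with a probe set, markers beside a result, and the 5 genes nearest to each of the 2 members with the widest range. Alternatives were other floors, log2(signal + floor), rescaling, quantile normalisation, second probe sets, 1.5-fold and lines left out. Promoter windows are RefSeq's, and motif letters were chosen after the data were seen.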

Additional observations from a re-analysis of the deposited data

Results flagged for a closer look

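A difference in direction between the pair DU6 with DUKs and the pair DU6i with DBA drew attention to 4 probe sets; none of these differences between pairs was tested, since each line has 1 pool. For C4bp the log2 ratio was 1.17 in DU6 over DUKs and -3.50 in DU6i over DBA, a difference of 4.67. For C1qb by its chip A probe set the ratios were -0.06 and 0.81, a difference of -0.87. For Cfb they were -0.08 and 0.93 by the chip A probe set, a difference of -1.01, and -0.14 and 0.45 by the chip B probe set, a difference of -0.58. For C1qb and Cfb the ratio of DU6 over DUKs was within 1 technical SD of 0.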

How the results depend on the processing

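The count of members at 2-fold or more was 1 in each of the pairs DU6 vs DUKs, DU6i vs DBA, DU6 vs DU6i and DUKs vs DBA, and stayed 1 with the floor halved or doubled, with log2(signal + floor), after rescaling and with the second-brightest probe set. After quantile normalisation it was 2 in DU6i vs DBA, where C1qa was 2.03-fold higher. At 1.5-fold the counts were 2 in DU6 vs DUKs, 2 in DU6i vs DBA, 3 in DU6 vs DU6i and 2 in DUKs vs DBA, by the lower threshold itself. The log2 ratio of C4bp ranged between 1.07 and 1.44 in DU6 over DUKs and between -3.50 and -2.84 in DU6i over DBA over the settings that can change it. Its ratio of DU6 over DBA was -0.09 and turned to 0.24 after quantile normalisation; the cause was not tested. C1qb in DU6i over DUKs was -0.44 and turned to 0.24 by its second-brightest probe set. By limma 0 complement genes passed between the sides under every alternative run, including each line left out in turn, where the counts ran from 0 to 0; without a filter on low signals 4 probe sets outside these genes passed. Where 1 line was left out, its side had a lone pool that was assumed to vary like the other side. No paired analysis was possible because each line has 1 pool and the labels give no replicate numbers. C4bp in DU6i lies near the floor, which limits how large its fold can be read.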
